A study of Sus scrofa with 4 samples.

Results

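The data on the coreceptors CD4 and CD8A and the surface markers CD2, CD1D and DPP4 came from the thymus of pigs with a knockout of IL2RG (KO) and of wildtype pigs (WT). Every array probe was taken whose RefSeq accession belonged to 1 of these 5 pig genes, out of 3020 genes with a named probe. CD4, CD8A and CD1D had 2 probes each and CD2 and DPP4 had 1 each, which gave 8 probes of the 43603 on the array. All 8 were well above background on each of the 4 arrays and all 8 were tested. CD8B, which encodes the other chain of the CD8 coreceptor, had no named probe.

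Thymus RNA of Minnesota miniature swine was hybridised to one-colour porcine arrays of Agilent, with 2 arrays of IL2RG+/- pigs, called KO, and 2 arrays of wildtype pigs, called WT. KO pigs carried the monoallelic change named mIL2RG+/Δ69-368 and were born after nuclear transfer from cell colonies edited with TALENs, which held small deletions in exon 2. Most KO pigs lacked a thymus, so that the KO arrays came from the animals in which one was found, described as rudimentary. IL2RG encodes the common gamma chain, a subunit shared by the receptors of several interleukins. The age and sex of the animals on the arrays are not given in the sources used here. The series describes the arrays of each genotype as independent experiments, and nothing says whether the WT arrays came from separate animals. Each slide held 1 array of each genotype, with KO replicate 1 beside WT replicate 2 on slide 1 and KO replicate 2 beside WT replicate 1 on slide 2.

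In the thymus, precursors that carry neither coreceptor first gain both CD4 and CD8 and then keep only one of them, CD4 on cells that recognise MHC class II and CD8 on cells that recognise MHC class I. Both coreceptors carry the kinase LCK to the antigen receptor. CD2 is an adhesion receptor of T cells and NK cells, CD1D presents lipids and is found on cortical thymocytes, and DPP4, also called CD26, is a surface peptidase that T cells share with epithelium and other tissues.

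Each signal below is the background-subtracted brightness of a probe, and its log2 value is relative to the 75th percentile of the same array, so that 0 is the level of that percentile. A probe was called different at an adjusted p under 0.05 from limma with at least 2-fold change. Of the 31959 probes tested, 34.0% were called different, 13.0% lower and 21.0% higher in KO, and the median log2 fold change of all of them was -0.06. The number called was 10882 with all arrays, 6424 without KO replicate 1 and 6093 without KO replicate 2, and it was 6611 after the normexp background correction. Scaling to the array median moved the median log2 fold change of all probes to -0.32 and the split of calls from 4170 lower and 6712 higher to 6334 lower and 5810 higher, and with no scaling it was 3243 lower and 7593 higher. IL2RG itself had log2 signals of -3.15 and -3.29 in KO replicates 1 and 2, compared with -0.13 and 0.52 in WT replicates 1 and 2. It was lower in both KO arrays than in both WT arrays, with a log2 fold change of -3.41 (SE 0.27, adjusted p = 0.00256 from limma). The edited colonies held small deletions, and where the probes lie relative to them is not known here, so that this level is no full check of the labels. No spot was saturated, and 67.9% to 74.5% of the probes of an array were well above background.

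Of the 8 probes, 7 were called lower in KO and 0 higher, against 13.0% of all tested probes called lower. CD4, CD8A, CD2 and CD1D fell, and DPP4 did not pass the test. The median log2 fold change of the 8 probes was -2.55, compared with -0.06 for all probes. In 8 of 8 probes both KO arrays lay below both WT arrays, a pattern that 41.0% of all tested probes had. In whole tissue, fewer cells of a type and less RNA per cell cannot be told apart.

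**Figure D1:**
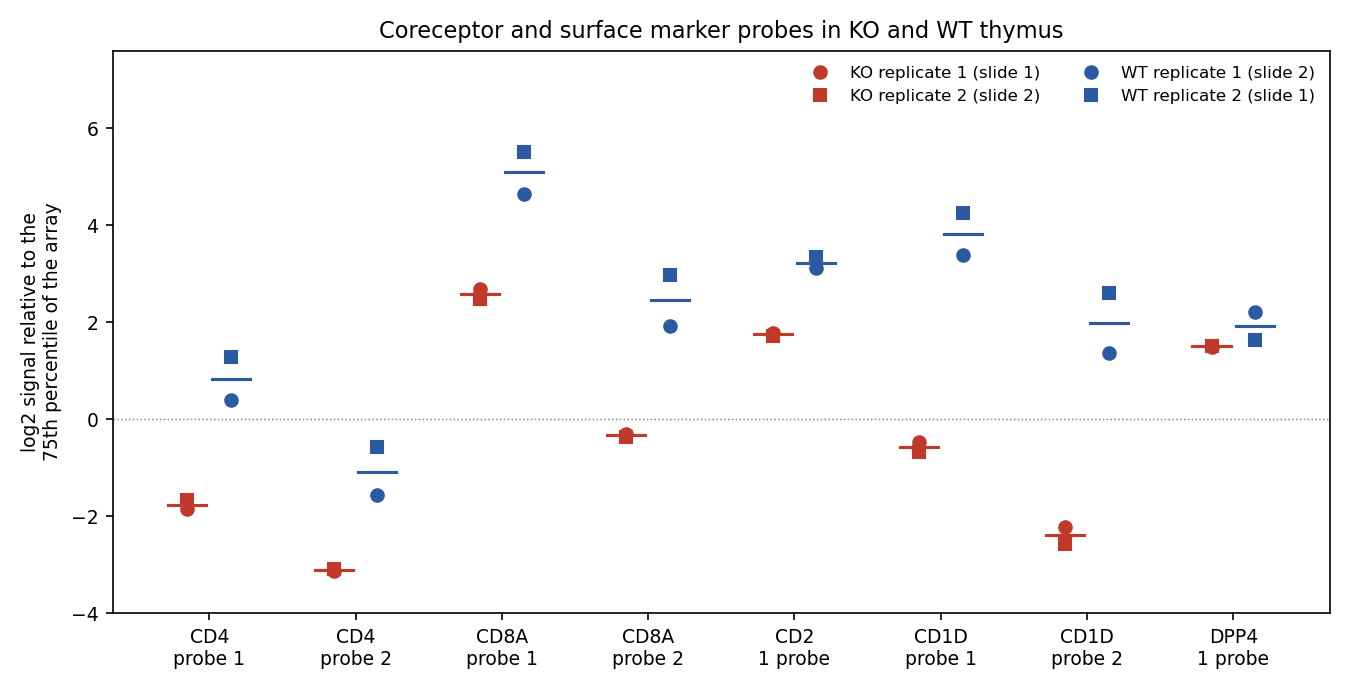
Log2 signal of the 8 probes relative to the 75th percentile of the array (vertical axis) in the 4 arrays, with KO in red, WT in blue, and lines at the mean of each genotype (n = 2 arrays). The KO arrays lie close together, the WT arrays of CD4, CD8A and CD1D lie further apart, and the gap between the genotypes is widest at CD1D and narrowest at DPP4.

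CD4, the coreceptor that binds MHC class II, fell 6.05-fold by its brighter probe. The signal of this probe was 212 and 218 in KO replicates 1 and 2, compared with 811 and 1693 in WT replicates 1 and 2. Its log2 values were -1.85 and -1.67 in KO against 0.39 and 1.29 in WT. Both KO arrays were low and nearly level, and WT replicate 2 was well above WT replicate 1. The groups did not overlap and were 2.06 apart at their nearest arrays, with a log2 fold change of -2.60 (SE 0.34, adjusted p = 0.00674 from limma). Within slide 1 the log2 difference of KO from WT was -3.13, and within slide 2 it was -2.06.

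The second CD4 probe showed the same order of the 4 arrays by genotype at a smaller change. Its signal was 87.1 and 82.1 in KO, compared with 208 and 465 in WT. The log2 fold change was -2.03 (SE 0.37, adjusted p = 0.0141 from limma), with -2.55 within slide 1 and -1.51 within slide 2. This call depended on the KO arrays, since the adjusted p from limma was 0.0622 without KO replicate 1 and 0.0617 without KO replicate 2, at log2 fold changes of -2.0 and -2.05.

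CD8A, the alpha chain of the coreceptor that binds MHC class I, fell 5.67-fold by its brighter probe. The signal was 4893 and 3885 in KO replicates 1 and 2, compared with 15586 and 31940 in WT replicates 1 and 2. The log2 values were 2.68 and 2.48 in KO against 4.65 and 5.52 in WT. As at CD4, the KO arrays were low and close together, and WT replicate 2 was the highest of the 4. The log2 fold change was -2.50 (SE 0.34, adjusted p = 0.00699 from limma), with -2.84 within slide 1 and -2.17 within slide 2. The second CD8A probe gave 619 and 543 in KO, compared with 2351 and 5484 in WT. It fell by 2.78 on the log2 scale (SE 0.39, adjusted p = 0.00757 from limma), so that both CD8A probes gave fold changes within 1 standard error of each other.

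CD1D, which presents lipids to natural killer T cells, had the lowest log2 fold change of the 5 genes. Its brighter probe had a signal of 550 and 434 in KO replicates 1 and 2, compared with 6481 and 13268 in WT replicates 1 and 2. The KO arrays kept 4.75% of the WT level, on the scale of mean log2 signals. The log2 values were -0.47 and -0.68 in KO against 3.38 and 4.26 in WT, with a gap of 3.85 between the groups. The log2 fold change was -4.40 (SE 0.34, adjusted p = 0.00248 from limma), and 0.629% of all tested probes had a lower one. The second probe had signals of 164 and 117 in KO, compared with 1591 and 4204 in WT. Its log2 fold change of -4.37 (SE 0.46, adjusted p = 0.00417 from limma) was nearly that of the first. Within the slides, the brighter probe differed by -4.73 on slide 1 and -4.07 on slide 2.

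CD2, an adhesion and costimulatory receptor that mature T cells and thymocytes share with NK cells, fell 2.78-fold. The signal of its probe was 2625 and 2296 in KO replicates 1 and 2, compared with 5367 and 7054 in WT replicates 1 and 2. The log2 values were 1.78 and 1.72 in KO against 3.11 and 3.34 in WT, so that the arrays of each genotype were close together and the groups were 1.33 apart. The KO arrays kept 36.0% of the WT level, with a log2 fold change of -1.47 (SE 0.17, adjusted p = 0.00497 from limma). The change was -1.56 within slide 1 and -1.39 within slide 2.

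DPP4, the surface peptidase, was not called. Its signal was 2162 and 1996 in KO replicates 1 and 2, compared with 2881 and 2149 in WT replicates 1 and 2, and its log2 values were 1.5 and 1.52 in KO against 2.22 and 1.63 in WT. Only WT replicate 1 stood above the rest, and the nearest arrays of the groups were 0.11 apart. The log2 fold change was -0.41 (SE 0.25, adjusted p = 0.234 from limma) with a 95% interval of -1.07 to 0.25, which does not exclude a fall of 2-fold. It was -0.13 within slide 1 and -0.69 within slide 2. WT replicate 1 decided its size, since the log2 fold change was -0.12 (adjusted p = 0.563 from limma) without that array and -0.70 (adjusted p = 0.0297 from limma, under 2-fold) without WT replicate 2.

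The rank of a probe within its own array does not depend on the scaling between arrays. The brighter CD4 probe ranked at the 60.0 and 61.6 percentile of all probes in KO replicates 1 and 2, and at 77.6 and 82.8 in WT replicates 1 and 2. The brighter CD8A probe ranked at 90.6 and 89.4 in KO, and at 96.2 and 97.6 in WT. The second CD8A probe ranked at 72.7 and 72.4 in KO, and at 86.2 and 91.1 in WT. Both coreceptor genes thus ranked lower in each KO array than in each WT array by these probes. The brighter CD1D probe ranked at 71.4 and 69.8 in KO, and at 92.6 and 95.3 in WT. DPP4 ranked at 84.6 and 84.4 in KO, and at 87.7 and 84.7 in WT.

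**Figure D2:**
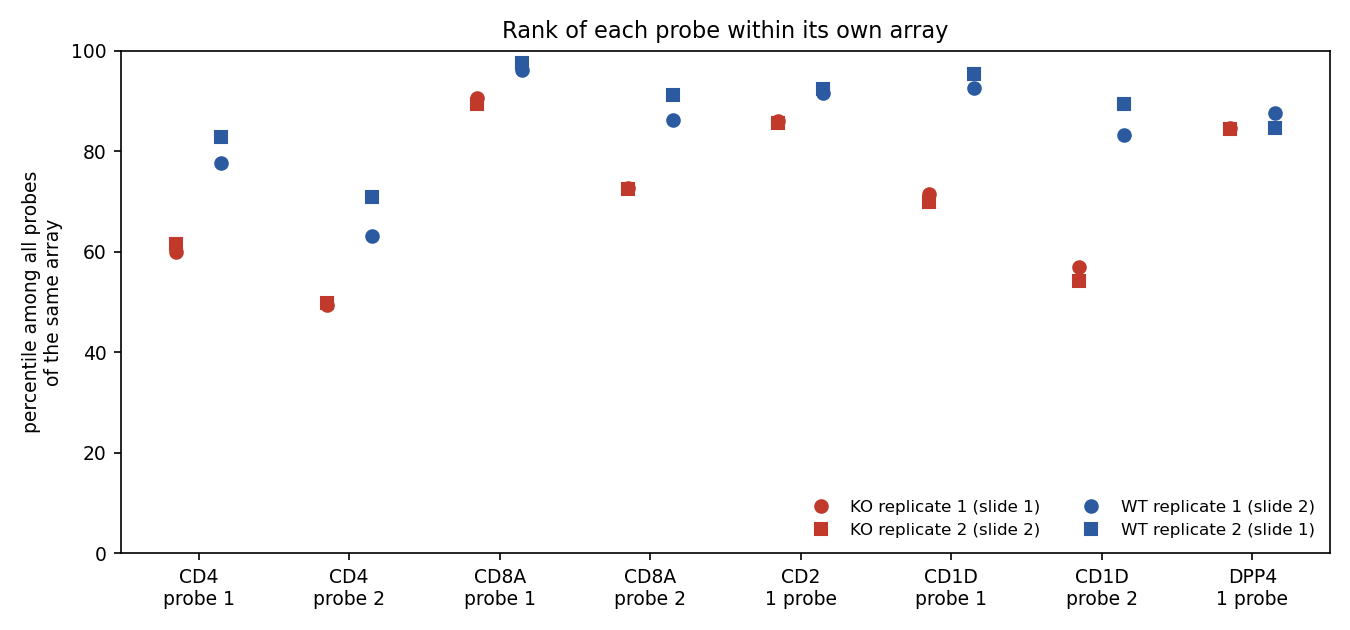
Percentile of each of the 8 probes among all probes of the same array (vertical axis), with KO in red and WT in blue. The second CD1D probe drops from 83.3 and 89.4 in WT to 56.9 and 54.1 in KO, and DPP4 stays between 84.4 and 87.7 in the 4 arrays.

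Whether the 5 genes changed by unequal amounts was compared within arrays. Over the 10 pairs of genes, the difference between the log2 signals of the brightest probes was taken within each array and compared between KO and WT with a two-sided exact permutation test, for which 4 arrays allow no p below 0.333. CD4 and CD8A fell by amounts that differed by -0.09, with the KO arrays at -0.28 and 0.09 relative to the WT mean and the WT arrays at -0.01 and 0.01, so that the groups overlapped (exact p = 1.0, adjusted 1.0). The second probes were not compared in this way, and by their log2 fold changes of -2.03 for CD4 and -2.78 for CD8A, CD4 fell less. In the other 9 pairs the groups did not overlap, and each pair had the smallest exact p of 0.333 (adjusted 0.37). CD8A fell by 1.89 less than CD1D, with the KO arrays at 1.89 and 1.9 relative to the WT mean and both WT arrays at 0.0 to 2 decimals. CD4 fell by 1.80 less than CD1D, with the KO arrays at 1.61 and 1.99 and the WT arrays at -0.01 and 0.01. The difference of CD8A from CD2 was -1.03, with KO at -0.96 and -1.1 and WT at -0.32 and 0.32.

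The WT arrays differed from each other at CD4, CD8A and CD1D. WT replicate 2 was above WT replicate 1 by 0.87 to 1.24 on the log2 scale in 6 of 6 probes of these 3 genes. A difference of at least 0.8 in this direction, a limit chosen after the values were seen, was found in 4.26% of all tested probes and in 6.45% of those called lower in KO. The difference was 0.23 at CD2 and -0.59 at DPP4, and the KO arrays differed by 0.02 to 0.35 over the 8 probes. Among 9 tested markers of thymocytes and T cells, all 9 were higher in WT replicate 2, by a median of 0.36. The chains of the antigen receptor complex, which all T cells carry, were nearer to each other, since CD3G was at 5.22 and 5.42 and CD3E at 4.18 and 4.49 in WT replicates 1 and 2. The median log2 difference of WT replicate 2 from WT replicate 1 was -0.97 over 4 markers of fibroblasts and -0.81 over 4 markers of endothelium. The WT arrays lay on different slides, so that these arrays alone cannot tell a difference between slides from one between samples. The KO arrays lay on the same slides, 1 on each. KO replicate 1, on slide 1, differed from KO replicate 2, on slide 2, by -0.17 to 0.35 over the probes of CD4, CD8A and CD1D. The part of the slide in the WT difference was not tested. The part of tissue make-up in the spread of CD4, CD8A and CD1D was not tested.

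**Figure D3:**
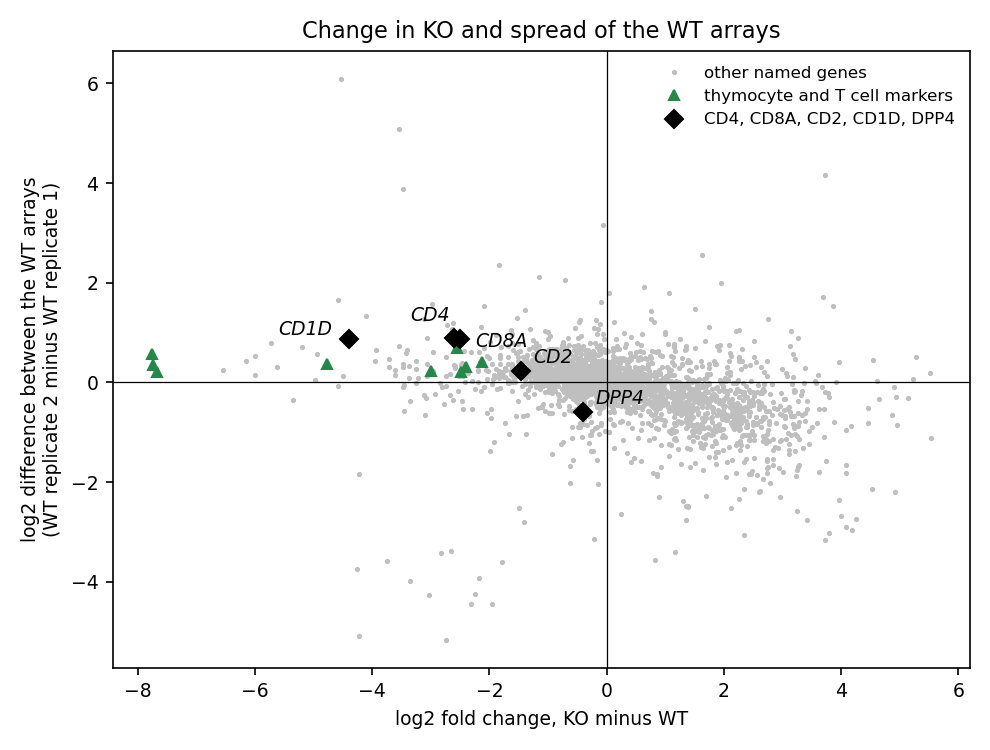
Log2 fold change of KO from WT (horizontal axis) against the log2 difference between the WT arrays (vertical axis) for the brightest probe of each tested named gene, with the 5 genes as black diamonds and markers of thymocytes and T cells as green triangles. CD4, CD8A and CD1D lie at 0.87 or above on the vertical axis, above the antigen receptor chains, and DPP4 lies below 0.

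Markers of other cells moved with these falls. Of the 2702 tested named genes, 12.6% were called lower and 25.2% higher by the brightest probe. All 9 tested markers of thymocytes and T cells were called lower in KO. RAG2, a recombinase subunit, was well above background on 3 of the 4 arrays and so passed the filter through WT, and the fit that required signal on all 4 arrays and the deposited values each called 8. Their summed signal, in units of the 75th percentile of the array, was 26.7 and 26.8 in KO, compared with 183 and 232 in WT. Of 9 macrophage and monocyte markers, 8 were called higher (5 without KO replicate 2), and the summed signal was 248 and 313 in KO, compared with 69.1 and 55.2 in WT. Epithelial markers summed to 232 and 221 in KO and 71.6 and 48.0 in WT, with 2 of 3 called higher (1 without either KO array, that is, with KO replicate 1 or 2 left out in turn). Of 4 markers each of fibroblasts and endothelium, 4 and 4 were called higher (1 and 2 without either KO array), with summed signals of 132 and 194 against 63.7 and 28.1 for fibroblasts and of 17.5 and 19.1 against 5.69 and 3.3 for endothelium. The fibroblast count was 2 with the replicate block and with no filter on dim probes. Dendritic cell markers summed to 19.9 and 27.0 in KO against 18.4 and 13.1 in WT, with 3 of 4 called higher (1 without either KO array). The brightest gene weighs most in such a sum. For dendritic cells it was FSCN1, which was not called, at log2 4.06 and 4.57 in KO and 4.08 and 3.58 in WT. For epithelium it was KRT8, at 7.61 and 7.54 in KO and 5.65 and 4.76 in WT, while EPCAM was not called (log2 fold change 0.37). For fibroblasts it was DCN, at 6.62 and 7.24 in KO and 5.78 and 4.50 in WT. All 8 tested proliferation genes were called lower, with a median of -2.50. NK cell markers, which bear on CD2, summed to 10.3 and 10.5 in KO against 5.32 and 7.11 in WT, with 2 of 3 called higher (1 without either KO array, without WT replicate 2 and with scaling to the median). The NK cell marker that was not called, GZMB, went the other way at -0.76 (SE 0.31, adjusted p = 0.111 from limma). NCR1, another listed NK cell marker with a named probe, did not pass the filter on dim probes. The NK cell markers called higher were KLRK1 and NKG7. In protein staining, the paper found no cells positive for CD56 or CD335 in KO pigs and took NK cells to be absent. Whether the RNA of KLRK1 and NKG7 came from NK cells was not tested. B cell markers fell in 4 of 4 genes, although 2 of them did not enter the fit that required signal on all 4 arrays. Another of them, CD72, lost the call without either KO array, at log2 fold changes of -1.49 without KO replicate 1 and -1.52 without KO replicate 2. The part of these cell types in the levels of the 5 genes was not tested.

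Of the genes whose products bind or work with the 5, 20 of the 26 listed were named and tested, and 2 were called lower and 14 higher, against 12.6% and 25.2% of the 2702 tested named genes. Without KO replicate 1 the number called higher was 8, and without KO replicate 2 it was 6. LCK, the kinase that both coreceptors carry, had log2 signals of 2.62 and 2.63 in KO against 4.83 and 5.53 in WT. It fell by 2.56 (SE 0.28, adjusted p = 0.00449 from limma), and its WT arrays were spread in the same direction as those of CD4 and CD8A. FYN, the related kinase, had a log2 fold change of -0.78 (SE 0.28, adjusted p = 0.0786 from limma) and was not called, although it was called with scaling to the median and without WT replicate 1. IL16, a ligand of CD4, fell by 1.1 (SE 0.16, adjusted p = 0.00836 from limma), a call that was lost at -0.88 with quantile normalization and with the deposited log2 values, at -0.95 with no scaling, and without either KO array.

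Genes of MHC class II and class I, whose products the coreceptors bind or which serve class II, were called higher. CD74, the invariant chain of MHC class II, had log2 signals of 5.48 in both KO arrays and 3.51 and 3.08 in WT. It rose by 2.19 (SE 0.21, adjusted p = 0.0034 from limma). The class II chains SLA-DRA, SLA-DQA1, SLA-DQB1 and SLA-DRB1 and the peptide-loading chains SLA-DMA and SLA-DMB were all called higher by their brightest probe, between 1.63 and 2.05. Of these, SLA-DQA1 and SLA-DRB1 lost the call without either KO array and SLA-DRA without KO replicate 2. SLA-3, an MHC class I gene that bears on CD8, was higher by 1.27 (SE 0.32, adjusted p = 0.0324 from limma), and the call was lost without either KO array, without WT replicate 2 and with no filter on dim probes. SLA genes have near-identical copies that a probe may not separate, so the value of a single one is uncertain. Class II genes are also strongly expressed by macrophages, dendritic cells, B cells and thymic epithelium.

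**Figure D4:**
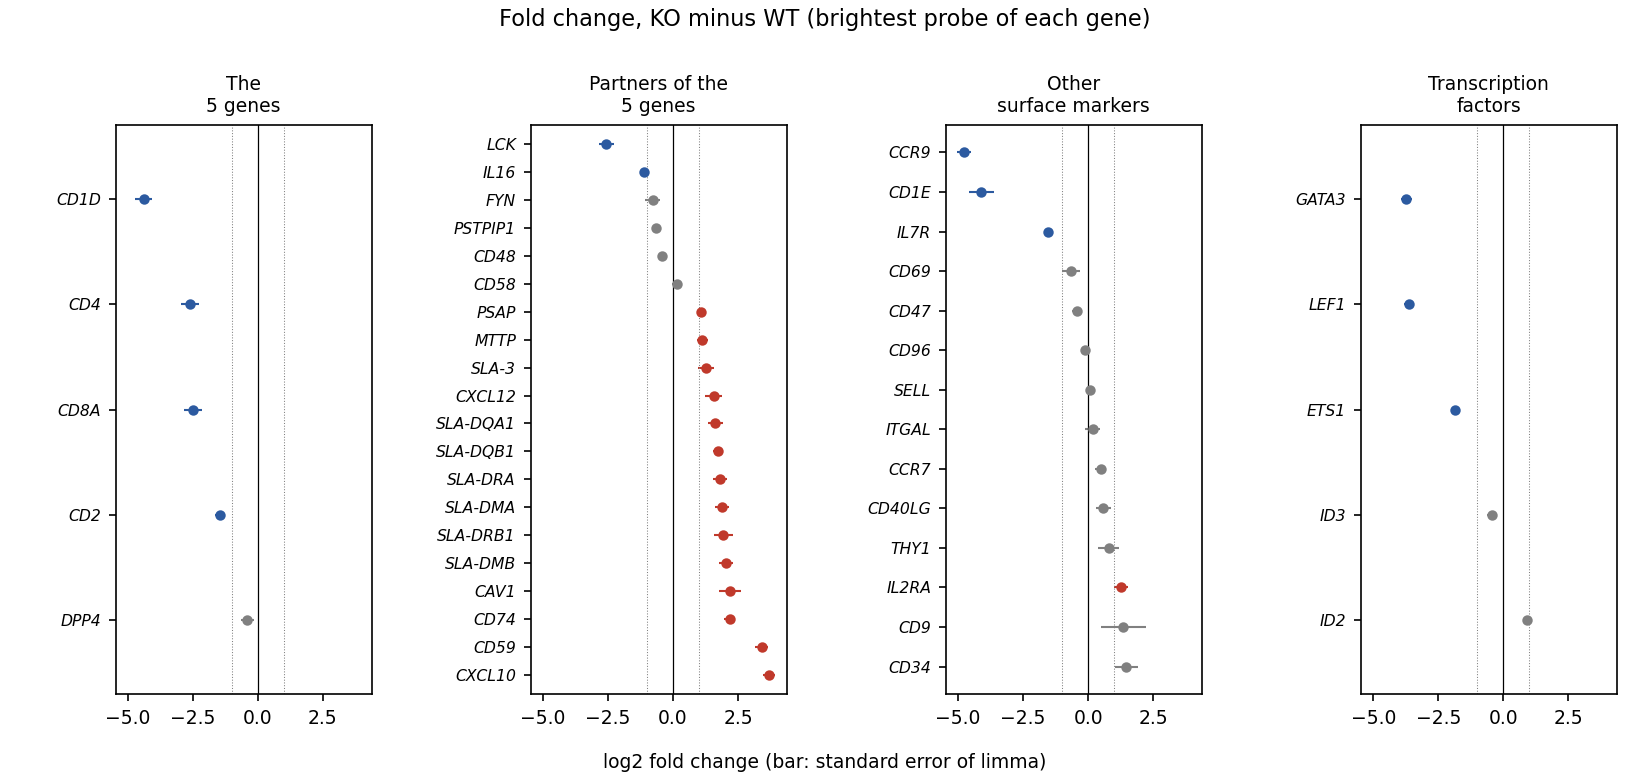
Log2 fold change of KO from WT with its standard error from limma for the brightest probe of each gene, for the 5 genes, their partners, other surface markers and transcription factors. Blue marks genes called lower, red those called higher and grey those not called, and dotted lines mark 2-fold; DPP4 is the one grey point among the 5, and the MHC class II genes are red.

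The genes around CD1D also divided. CD1E, a second member of the CD1 family, had log2 signals of -4.99 and -4.63 in KO, compared with -1.36 and -0.03 in WT. It fell by 4.11 (SE 0.49, adjusted p = 0.00536 from limma), and its WT arrays were 1.33 apart, again with WT replicate 2 above. MTTP, which loads lipids onto CD1D, was higher by 1.13 (SE 0.20, adjusted p = 0.0139 from limma) and PSAP, the precursor of the saposins that exchange lipids on it, by 1.09 (SE 0.18, adjusted p = 0.0115 from limma). Both lost the call with scaling to the median, at 0.88 and 0.84, and without either KO array, and MTTP also with the normexp correction, at 0.78. Of the 2 tested probes of PSAP, only 1 was called higher with all arrays.

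For CD2, the ligands CD58, CD48 and CD59 and the tail-binding protein PSTPIP1 were not called lower. CD58, its main ligand, had a log2 fold change of 0.15 (SE 0.17, adjusted p = 0.516 from limma), which turned to -0.11 with scaling to the median. CD48, another ligand of the same family, stood at -0.42 (SE 0.15, adjusted p = 0.0851 from limma). PSTPIP1, which binds the tail of CD2, was under the 2-fold limit at -0.66 (SE 0.16, adjusted p = 0.0304 from limma). CD59, a complement inhibitor that has been described as a second ligand, was higher, with 0.55 and 0.71 in KO against -2.51 and -3.04 in WT (log2 fold change 3.41, SE 0.24, adjusted p = 0.00227 from limma). Of the CD2 and SLAM family, 4 of 11 listed genes were tested and 2 were called lower, against 12.6% of the tested named genes. These were CD2 itself and SH2D1A, the adaptor of the SLAM receptors. SH2D1A was at -0.19 and -0.16 in KO and at 2.47 and 3.09 in WT.

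Of the peptidases listed with DPP4, 3 of 11 were tested and 2 were called higher, against 25.2% of the tested named genes. ANPEP and ENPEP, surface aminopeptidases that epithelium and other tissues carry, were called higher, ANPEP by 2.20 (SE 0.28, adjusted p = 0.00623 from limma) and ENPEP by 1.41 (SE 0.33, adjusted p = 0.0276 from limma). ENPEP lost the call without either KO array and without WT replicate 2, and 2 of its 3 tested probes were called higher with all arrays. PREP, a peptidase inside the cell, stood at -0.30 (SE 0.18, adjusted p = 0.224 from limma). CXCL10 and CXCL12, chemokines that DPP4 cleaves, were higher, CXCL10 by 3.70 (SE 0.23, adjusted p = 0.00209 from limma) with 7.10 and 7.12 in KO against 3.68 and 3.14 in WT. CXCL12 was higher by 1.56 (SE 0.34, adjusted p = 0.0225 from limma), a call lost without either KO array.

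Of 29 other surface markers of thymocytes listed, 14 were tested. By the brightest probe, 3 were called lower, 1 higher and 10 neither, against 12.6% lower and 25.2% higher of the 2702 tested named genes. CCR9, the chemokine receptor of thymocytes, had log2 signals of -0.32 and -0.81 in KO, compared with 4.01 and 4.40 in WT, and fell by 4.77 (SE 0.26, adjusted p = 0.00205 from limma). IL7R, whose partner is the gamma chain, fell by 1.56 (SE 0.15, adjusted p = 0.00372 from limma), and its WT arrays were at 1.09 and 1.1. CD1E was the third. IL2RA, the alpha chain of the IL-2 receptor, was called higher at 1.26 (SE 0.26, adjusted p = 0.0207 from limma), although not with quantile normalization (0.94), the normexp correction (0.39) or without either KO array. The IL2RA probe was dim, with signals of 51.1 and 61.1 in KO replicates 1 and 2, compared with 23.8 and 18.6 in WT replicates 1 and 2. CD34, a marker of early precursors and of endothelium, stood at 1.47 by its brightest probe (SE 0.45, adjusted p = 0.054 from limma). This probe was called higher under several alternatives, for example with slide as a block (adjusted p = 0.0226 from limma). Of the 3 tested probes of CD34, 2 were called higher with all arrays. Without WT replicate 1 the counts were 4 lower and 3 higher. CD69, an activation marker, then moved from -0.66 (adjusted p = 0.183 from limma) to -1.1 (adjusted p = 0.0128 from limma), and CD9, a tetraspanin, from 1.36 (adjusted p = 0.248 from limma) to 2.6 (adjusted p = 0.00144 from limma). The WT arrays of CD9 were at 4.55 and 2.06 by this brightest probe, and 2 of its 5 tested probes were called higher with all arrays.

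Of 18 transcription factors listed for coreceptor expression, 5 were tested and 3 were called lower, against 12.6% of the tested named genes. GATA3, needed for the CD4 lineage, had log2 signals of 2.71 and 2.57 in KO against 6.13 and 6.59 in WT, a fall of 13.2-fold (adjusted p = 0.00208 from limma). LEF1, which acts in early thymocytes, was at 1.37 and 1.11 in KO and at 4.73 and 4.98 in WT, a fall of 12.3-fold (adjusted p = 0.00205 from limma). ETS1 fell 3.57-fold (adjusted p = 0.00292 from limma). ID3 stood at -0.42 (SE 0.19, adjusted p = 0.131 from limma). ID2 was higher by 0.92 (SE 0.15, adjusted p = 0.0111 from limma), under 2-fold here and called higher at 1.11 with quantile normalization.

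Likeness of a profile was measured as the Euclidean distance over the 4 arrays after each probe was centred on its mean, among 2701 named genes, and is given as a description. The 3 nearest genes of CD4 were ST6GALNAC4, IL12RB1 and LCK, each at 0.18. The 3 nearest of CD8A were the same genes, at 0.12, 0.24 and 0.20. IL12RB1 was at -0.23 in both KO arrays and at 1.87 and 2.94 in WT. Nearest to CD2 were CLDN12 at 0.07, ADSL at 0.08 and CRLF3 at 0.12. CD1D had no gene as near, since CCR9 and YPEL1 lay at 0.55 and CD1E at 0.59. Nearest to DPP4 were PI3 at 0.06, P2RY6 at 0.12 and ITLN2 at 0.15, and none of these was called. The distance leaves out the level, and PI3 (-5.58 to -4.88 over the 4 arrays) and ITLN2 (-4.65 to -4.04) were far dimmer than DPP4. These likenesses are of small differences between arrays.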

How the data were processed

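Thymus RNA of 2 IL2RG KO and 2 WT arrays was analysed. The authors deposited the scanner output of Agilent Feature Extraction, version 11.0.1.1 per the file headers, in which the processed intensity is background-subtracted and not normalized between arrays, together with flags for background, saturation and outliers. The authors also deposited a log2 table of 27974 probes, made with GeneSpring according to the methods, whose values correlated with the scanner log2 signal at a Pearson's r of at least 0.9998. The methods describe Cy-3 and Cy-5, whereas labels and files hold Cy3 alone.

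Control spots and outlier spots were left out (6 of 43603 probes). The processed intensity was log2 transformed, centred on the 75th percentile of its array and averaged over the spots of a probe. Probes that exceeded background on both KO or both WT arrays (31959) were fitted with lmFit and eBayes of limma 3.58.1 in R 4.3.3, with Benjamini-Hochberg adjustment over all of them. Tables and figures were made with Python 3.11.15, pandas 2.3.3, scipy 1.17.1 and matplotlib 3.10.9. The procedure was tested on simulated data.

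Probes were named through their RefSeq accession (6686 probes, 3020 genes), and the brightest probe by mean signal stood for its gene. The genes named are all probes of the 5 genes, IL2RG, the 3 nearest profiles of each, and members of lists of partners, markers and regulators. The genes and lists were chosen with earlier results of these data known. The alternatives were quantile, median or no scaling, normexp with an offset of 50, the deposited log2 values, other filters on dim probes, slide or replicate number as a block, an intensity trend, the methods' t-test, and each array left out in turn. Normexp was run on the median spot intensity, since the files hold no mean.

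Precision is limited by the number of arrays. With 2 per genotype, the smallest two-sided exact permutation p is 0.333, over 6 permutations of the labels. Where replicates do not come from separate animals, the p-values measure only the spread between these samples. Deviations from the group means correlated at -0.29 between arrays of the same replicate number, so the numbers were not taken to pair the samples. With 2 arrays per genotype, the value of 0.29 between arrays of the same slide is the same value with its sign turned. Probe sequences and genome positions were not used here. Spleen arrays were not analysed here.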

Additional observations from a re-analysis of the deposited data

How the results depend on the processing

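The 7 falls of probes of CD4, CD8A, CD2 and CD1D kept their direction under all alternatives run, and 7 were called under each limma alternative with all 4 arrays, with slide as a block (adjusted p 0.00804 to 0.0202) and with the replicate block (adjusted p 0.00543 to 0.0151). The replicate block called 10668 of all probes, and the crossed pairing of replicate numbers, chosen after the data were seen and the same as the pairing by slide, called 11124. The replicate block changed no call among the 5 genes. With 1 array left out, 6 to 7 of the 8 probes and 6093 to 12713 of all probes were called, with log2 fold changes of -3.05 to -2.15 for CD4, -2.94 to -2.07 for CD8A, -1.59 to -1.36 for CD2, -4.83 to -3.96 for CD1D and -0.70 to -0.12 for DPP4. In these fits the lone array was assumed to vary like the other genotype. The normexp correction called 6611 of all probes and 7 of the 8. Under Bonferroni correction, the methods' t-test called 0 of all probes and 0 of the 8 (adjusted p = 1.0 for each), with 8611 and 6 at an unadjusted p under 0.05. With Benjamini-Hochberg adjustment it called 1505 of all probes and 0 of the 8, with an adjusted p of 0.0903 for CD4 (log2 fold change -2.60), 0.0911 for CD8A (-2.50), 0.0567 for CD2 (-1.47), 0.0625 for CD1D (-4.40) and 0.0614 for IL2RG (-3.41). The difference between the falls of CD4 and CD8A turned from -0.09 to 0.22 with the normexp correction and ranged from -0.28 to 0.09 with 1 array left out. Causes of these changes were not tested.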
